A study of Rattus norvegicus with 6 samples.

Results

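Respiratory complex I, the NADH:ubiquinone oxidoreductase of the inner mitochondrial membrane, was followed through the mRNAs of its nuclear-encoded subunits in cultured heart muscle cells given isoproterenol. Members were every mRNA on the arrays whose RefSeq transcript belongs to a rat gene with a symbol starting Ndufa, Ndufb, Ndufc, Ndufs or Ndufv and then a number, with Ndufab1 added; the Ndufaf assembly factors were left out. The rule found 34 transcripts of 33 genes among the 20027 genes tested. It uses gene symbols and no measured value, but it was set with earlier results of these data known. RefSeq lists 48 protein-coding rat genes with such symbols, and the other 15, among them Ndufa3, Ndufa8, Ndufb4, Ndufc1 and Ndufs6, are not analysed here.

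The study compared neonatal rat ventricular cardiomyocytes left untreated (3 samples) with the same kind of cells kept for 24 h in 10 µM isoproterenol (3 samples), an agonist of beta-adrenergic receptors used to induce hypertrophy. All cells came from ventricles of Sprague-Dawley rats 1 to 3 days old, were depleted of fibroblasts by 1.5 h of pre-plating, and spent 24 h without serum before treatment. Total RNA of each sample was hybridised to a one-colour Agilent array, and a level below is the log2 signal minus the 75th percentile of that array. Passages are mentioned in the labels and transfected replicates in the series text, and neither matches primary cells given a drug. No label ties a replicate to a litter or culture day, so p-values cover only the variation among these 6 samples, which may be technical.

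Complex I accepts electrons from NADH and passes them through flavin and a chain of iron-sulphur clusters to ubiquinone, and it pumps protons across the inner membrane as it does so. Its core subunits are shared with bacteria and split between nuclear and mitochondrial genes, and a larger number of supernumerary subunits surround them. The beating heart depends on oxidative phosphorylation, so the complex is abundant in cardiomyocytes.

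The arrays were not evenly matched. Slides were told apart by the recorded scan date. By it, the 3 controls and isoproterenol replicate 1 lay on 1 slide (slide 1), and isoproterenol replicates 2 and 3 on another (slide 2). On slide 1, 97.5% to 99.7% of the mRNA probes were well above background, against 61.0% and 70.6% on slide 2, where the signal of the negative control probes was 84 and 87 rather than 27 to 30. Changes of the members are therefore also given within slide 1, which sets 1 treated array against 3 controls. A fit with the slide as a block estimates this same change, since slide 2 holds no control. Only the spread it uses differs. All members were well above background on all 6 arrays except Ndufa4l2, which was so on the 3 controls and on 1 isoproterenol array. All 9 measured cardiomyocyte markers were well above background on every array, and their summed level was 10.34 to 10.52 in controls and 10.53 to 11.28 in treated samples (log2 scale). Of these 9, 1 rose, Myh6, the alpha myosin heavy chain, by 1.23 ± 0.23 (log2 change ± SE; limma, adjusted p = 0.0186). With the slide as a block Myh6 no longer passed (0.0697), and Pln and Mybpc3 passed as lower (0.0238 and 0.0275), with -1.24 and -1.15 within slide 1. Of 7 smooth muscle and pericyte markers 2 rose, Tagln by 1.77 ± 0.34 and Acta2 by 1.91 ± 0.50, and the summed level of the 7 was 6.98 to 7.67 in controls and 8.11 to 9.19 in treated samples. Within slide 1 these changes were 1.03 and 1.16, and the slide as a block ended both calls (adjusted p = 0.0640 and 0.307). Of 10 fibroblast markers 2 rose and 4 fell, 3 of these 6 calls being kept with the slide as a block, with summed levels of 7.29 to 7.37 and 7.06 to 7.48. Of 7 endothelial markers 1 fell (summed levels 3.93 to 4.10 and 3.83 to 3.98), of 6 immune markers 1 rose and 1 fell (3.26 to 3.82 and 3.50 to 3.88), of 4 erythroid markers 1 fell (4.77 to 5.01 and 4.42 to 5.29), and none of 3 epicardial markers passed (3.57 to 3.77 and 3.81 to 4.49). Of these 4 calls, the endothelial one, Kdr, was kept with the slide as a block. Kdr, and the immune and erythroid genes that fell, Cd3e and Hbb, were each well above background on only 1 treated array. With normexp background correction over all arrays, the changes of Kdr, Cd3e and Hbb were -0.05, 0.13 and 0.08, and none passed. The part of other cell types in the values below was not tested, and in these bulk samples fewer cells of a type and less RNA per cell cannot be told apart.

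The promoters of the members shared short sequence features that the choice of genes did not use. RefSeq windows (build GRCr8) of 300 bases, 250 before and 50 after the gene start, were at hand for 31 of the 33 members, and each motif was searched on both strands. The letters AANATGGCG, bound by YY1, stood in 9 of 31 member windows (29.0%) and in 4.00% of 19005 windows of all genes. The windows around these 9 matches, 30 bases each, are shown because they carry the most common shared feature; the motif is in capitals and each is written 5′ to 3′ on the strand that holds it.
Ndufa13 (chr16:19560469-19560498, + strand): cgccacactcAAAATGGCGgtcgcgagtag
Ndufa2 (chr18:28631839-28631868, - strand): tttgctagcaAAGATGGCGgccgcaagccg
Ndufa6 (chr7:115750283-115750312, - strand): cttccttagcAAGATGGCGgccgcggccag
Ndufa7 (chr7:15311448-15311477, + strand): gagcggaaggAATATGGCGtccgctactcg
Ndufa9 (chr4:161374141-161374170, - strand): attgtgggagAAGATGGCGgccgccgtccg
Ndufb8 (chr1:253362896-253362925, - strand): ggagaaggtgAAGATGGCGgcgtcccgggc
Ndufs1 (chr9:72073616-72073645, + strand): gccgctaagtcAATATGGCGgccacggcta
Ndufs4 (chr2:47794891-47794920, - strand): tgcccacaggAAGATGGCGgcggtctcaat
Ndufs7 (chr7:10110475-10110504, - strand): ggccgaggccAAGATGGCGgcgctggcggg
In 8 of the 9 the motif lay on the strand of the gene, and in Ndufs1 on the other strand. Counted along the strand of the gene, its first base lay between 4 and 26 bases after the gene start in 7 of them. In Ndufa13 and Ndufs1 that base lay 47 and 30 bases before the start. The letters of the motif include ATG, also those of a start codon, and whether a match is a start codon was not tested.

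Other motifs were less common among members. GCGCA, any base and then GCGC, bound by nuclear respiratory factor 1, stood in 5 member windows (16.1%, against 6.09% of all), those of Ndufa5, Ndufa11, Ndufa12, Ndufs5 and Ndufv3. CCGGAAG, bound by ETS factors such as GABP, stood in 7 (22.6%, against 11.2%). AAGGTCA, of oestrogen-related receptors, stood in 2 (6.45%, against 3.70%), and TGACGTCA, the cAMP response element, in Ndufa10 and Ndufb2 (6.45%, against 2.22%). ACGTGC, part of hypoxia response elements, stood in 1, that of Ndufb3 (3.23%, against 6.12%). A match describes the letters only. The 250 bases before the start of Ndufs1 (chr9:72073606-72073855, - strand), the largest core subunit, are shown because they hold both an ETS and a YY1 match, each in capitals and each as its reverse complement.
Ndufs1: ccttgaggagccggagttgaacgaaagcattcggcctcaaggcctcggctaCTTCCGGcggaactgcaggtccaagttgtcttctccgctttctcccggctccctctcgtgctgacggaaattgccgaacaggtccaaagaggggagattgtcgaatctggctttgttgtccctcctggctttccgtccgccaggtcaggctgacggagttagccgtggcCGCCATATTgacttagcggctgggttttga

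No complex I gene passed the test between isoproterenol and control. With limma and Benjamini-Hochberg adjustment over all genes at 0.05, 0 of 33 members rose and 0 fell, while 2001 of all 20027 genes (9.99%) rose and 1164 (5.81%) fell, 15.8% in all. At an unadjusted p under 0.05, 5 of 33 members (15.2%) would have been called, against 35.8% of all genes (Ndufa4 and Ndufb9 were among those above control, Ndufa4l2 and Ndufb3 among those below it). The groups did not overlap for 6 members (18.2%, against 41.4% of all genes), of which only Ndufb9 was higher in treated cells, and 5, Ndufa4l2, Ndufb3, Ndufab1 and Ndufa9 among them, were lower. Leaving out isoproterenol replicate 1, so that every treated array lay on slide 2 and every control on slide 1, gave 12 members above control past the threshold (36.4%, against 29.3% of all genes) and 4 below it (12.1%, against 22.5%), 16 of 33 in all against 51.8%. Leaving out any other array gave 0 calls among members, where only 1.56% to 7.14% of all genes passed.

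In the main fit the intervals of most changes were narrow. That fit has no term for the slide, so its intervals do not cover the slide or the choice of scaling. The members' median change of 0.09 became -0.27 after quantile normalization and -0.18 within slide 1. For 24 of 33 members (72.7%) the whole 95% interval of the change lay within 2-fold either way, against 43.3% of all genes. The estimated change was under 0.5 log2 in size for 27 members (81.8%, against 52.8%) and at least 1 for 2 members, Ndufa4l2 and Ndufb3 (6.06%, against 17.5%). The median change of the members was 0.09 and that of all genes 0.07, with 21 members above 0 (63.6%, against 54.0%). The spread between arrays, which sets these intervals, was also smaller among members: the median SD over the 3 controls was 0.10 for members and 0.15 for all genes, and over the 3 treated arrays 0.30 and 0.36. The members were also better detected: 32 of 33 were well above background on all arrays, against 12307 of the 20027 genes. Among genes so detected the median change was 0.10 for members and 0.20 for all. The part of signal level in these contrasts was not tested.

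**Figure D1:**
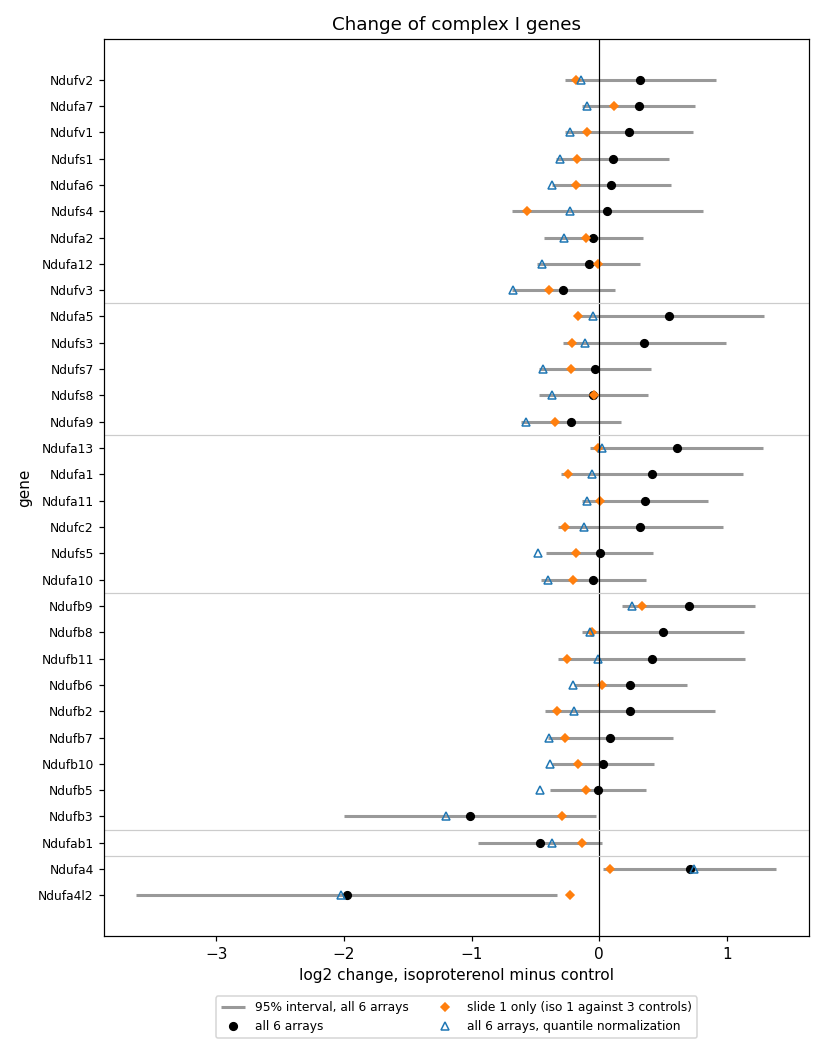
Log2 change (isoproterenol minus control) of 32 of the 33 complex I genes, grouped by horizontal lines from top to bottom into the NADH-oxidising arm, the quinone-reducing arm, the proximal and the distal membrane arm, the acyl carrier, and Ndufa4 with Ndufa4l2. Black points and grey bars are the estimate and 95% interval over all 6 arrays, orange diamonds the 1 treated array of slide 1 against the 3 controls, and blue triangles all arrays after quantile normalization; 5 of all 33 members lie above 0 within slide 1, against 21 over all arrays.

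The core subunits carry the redox chain itself, and 7 of them are nuclear-encoded. In the NADH-oxidising arm, Ndufs1, which holds several of the iron-sulphur clusters, stood at 5.55, 5.43 and 5.43 in the controls and at 5.29, 5.72 and 5.70 in isoproterenol replicates 1, 2 and 3. Ndufv1, which holds the flavin and the NADH site, stood at 6.69, 6.35 and 6.45 in controls and at 6.40, 6.90 and 6.89 in treated samples. Ndufv2, another iron-sulphur protein of this arm, stood at 6.87, 6.77 and 6.97 and at 6.69, 7.49 and 7.40. In Ndufs1 and Ndufv2 the treated array on slide 1 was below every control, in Ndufv1 it was within their range, and in all 3 both arrays on slide 2 were above every control. The changes were 0.10 ± 0.19, 0.23 ± 0.21 and 0.32 ± 0.25 (log2 ± SE), none of them past the threshold (limma, adjusted p = 0.707, 0.446 and 0.376), and within slide 1 they were -0.18, -0.10 and -0.18.

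The quinone-reducing arm leads the electrons to ubiquinone. Its core subunit Ndufs3 stood at 7.0, 6.76 and 6.92 in controls and at 6.68, 7.59 and 7.47 in treated samples, a change of 0.35 ± 0.27. Ndufs7, which carries the last cluster before ubiquinone, stood at 6.07, 5.82 and 5.87 and at 5.70, 6.12 and 5.85, a change of -0.03 ± 0.19. Ndufs8, a further iron-sulphur subunit, stood at 4.28, 4.02 and 3.95 and at 4.04, 4.18 and 3.89, a change of -0.05 ± 0.18. Within slide 1 the changes of Ndufs3, Ndufs7 and Ndufs8 were -0.21, -0.22 and -0.04. In Ndufs7 and Ndufs8 the groups overlapped, and in Ndufs3 the treated arrays lay on both sides of the controls. Over the 7 core subunits the median change was 0.10 over all arrays, with 4 above 0, and -0.18 within slide 1, where none was above 0.

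The supernumerary subunits were spread around the same centre. Over 24 of them the median change was 0.09, with 16 above 0 and 8 below, and 0 passed; within slide 1 it was -0.18, with 4 above 0. By place in the complex, counting core and supernumerary subunits together, the median was 0.09 for 9 members of the NADH-oxidising arm (-0.28 to 0.32), -0.04 for 6 of the quinone-reducing arm, 0.34 for 6 of the proximal membrane arm (-0.05 to 0.60) and 0.24 for 9 of the distal membrane arm (-1.01 to 0.70). Within slide 1 the medians of the 4 arms were -0.18, -0.22, -0.20 and -0.17. Differences between arms were not tested.

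Ndufb9, a distal subunit that binds acyl carrier protein, had the smallest p of all members. It stood at 6.53, 6.19 and 6.27 in controls and at 6.66, 7.25 and 7.17 in treated samples, so all treated arrays were above all controls. The change was 0.70 ± 0.22 (95% interval 0.18 to 1.22; limma, adjusted p = 0.0725), 0.33 within slide 1 and 0.25 after quantile normalization. It passed when the test was limited to the 12307 genes detected on every array (adjusted p = 0.0337), 1 of 32 members where 25.0% of genes rose and 34.5% passed.

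Ndufb3, another distal subunit, had the largest difference among structural subunits. It stood at 2.97, 3.16 and 3.03 in controls and at 2.76, 1.06 and 2.30 in treated samples. All treated arrays were below all controls, but the arrays of slide 2 also differed from each other by more than the controls did. The change was -1.01 ± 0.42 (limma, adjusted p = 0.132), and -0.30 within slide 1.

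Ndufa13, also known as GRIM-19 and placed in the proximal membrane arm, stood at 7.39, 7.25 and 7.39 in controls and at 7.33, 8.36 and 8.15 in treated samples. Ndufa5, of the quinone-reducing arm, stood at 7.37, 7.36 and 7.33 and at 7.19, 8.33 and 8.19. In both, the treated array on slide 1 was within the range of the controls or below it, while both arrays of slide 2 were above every control. Their changes of 0.60 ± 0.29 and 0.55 ± 0.31 (limma, adjusted p = 0.176 and 0.243) became -0.01 and -0.17 within slide 1.

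Ndufab1, the mitochondrial acyl carrier protein, which is a subunit of the complex and also serves fatty acid synthesis in the matrix, had a change of -0.46 ± 0.20 (limma, adjusted p = 0.153) and -0.13 within slide 1. Ndufa9, a subunit near the quinone site, had -0.22 ± 0.16 over all arrays and -0.35 within slide 1. Ndufv3 was measured by 2 transcripts, and the brighter one gave -0.28 ± 0.17 (adjusted p = 0.265), the other -0.64 ± 0.21 (adjusted p = 0.0790, limma over all probes). After quantile normalization Ndufa9 and Ndufv3 passed as lower (-0.57 and -0.67; limma, adjusted p = 0.0486 and 0.0363), 2 of 33 members (6.06%) where 5.93% of all genes were lower. In the authors' deposited table of log2 values 3 of 33 members passed as lower, Ndufa9 and Ndufv3 among them (9.09%, against 6.51% of all genes), and with the 75th percentile taken over probes detected on all arrays 1 of 33 did (3.03%, against 9.74%). Ndufs4, of the NADH-oxidising arm, had the widest spread over controls of all members (SD 0.31, n = 3), and its change was 0.06 ± 0.31 over all arrays and -0.56 within slide 1.

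Ndufa4 and Ndufa4l2 carry complex I names but are not structural subunits of it: Ndufa4 has been assigned to cytochrome c oxidase, and Ndufa4l2 is its hypoxia-inducible paralogue. Ndufa4 stood at -1.62, -1.72 and -1.49 in controls and at -1.52, -0.52 and -0.67 in treated samples, a change of 0.71 ± 0.29 (limma, adjusted p = 0.129), or 0.09 within slide 1. Ndufa4l2 stood at -1.29, -1.47 and -1.05 in controls and at -1.50, -4.21 and -4.04 in treated samples, a change of -1.98 ± 0.69 (adjusted p = 0.0925), or -0.23 within slide 1. The low values were those of the arrays on slide 2, where it was not well above background. Shmt2, which overlaps Ndufa4l2 in the annotation and encodes mitochondrial serine hydroxymethyltransferase, rose by 2.71 ± 0.52 (limma, adjusted p = 0.0187) and had a change of 2.02 within slide 1. It stood at 3.95, 2.39 and 2.36 in controls, which were thus uneven, and at 4.92, 6.22 and 5.69 in treated samples. Of 45 measured genes next to or overlapping a member, 5 rose and 3 fell, 17.8% in all against 15.8% of all genes.

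**Figure D2:**
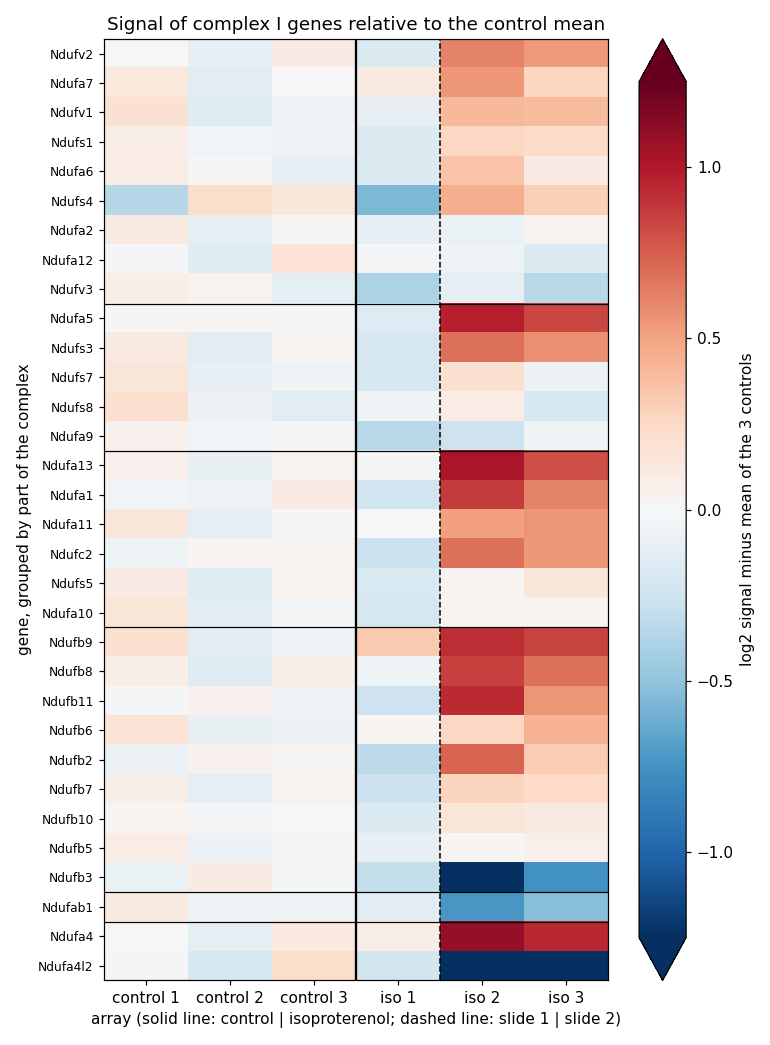
Level of 32 of the 33 genes on each array, as log2 signal minus the mean of the 3 controls (red above, blue below; colours saturate at the arrow ends of the bar), with genes in the same order and groups as in the plot of changes. The solid vertical line parts controls from treated arrays and the dashed line parts slide 1 from slide 2; isoproterenol replicate 1 is blue for most genes, and replicates 2 and 3 are red for most.

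Isoproterenol replicate 1, on slide 1, lay above the control mean for 5 of 33 members, and replicates 2 and 3, on slide 2, for 25 and 24. Isoproterenol replicate 1 was below every control for 22 of 33 members (66.7%, against 29.7% of all genes) and above every control for 1 member (3.03%, against 45.6%). Isoproterenol replicates 2 and 3 were each above every control for 21 members (63.6%), against 46.8% and 44.7% of all genes. Both arrays of slide 2 exceeded isoproterenol replicate 1 for 27 members (81.8%, against 47.9%). Over the 6 arrays the median difference of the members from the control mean was 0.08, -0.09 and -0.02 in the controls and -0.18, 0.28 and 0.25 in the treated samples, where the medians of all genes were 0.11, 0.11 and 0.07. The controls had an order of their own, with control replicate 1 the highest of the 3 for 22 members (66.7%, against 41.0%) and control replicate 2 the lowest for 21 (63.6%, against 34.3%).

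Within slide 1 the members were low against the rest of the array. There, 5 of 33 members (15.2%) were above 0, against 58.9% of all genes, and the median change was -0.18 against 0.11. None passed (limma, 0 of 33, against 5.11% of all genes) and none had an unadjusted p under 0.05 (against 28.7%), with 1 treated array in this comparison and its spread taken from the controls. The 95% interval lay within 2-fold for 32 of 33 members (97.0%, against 60.6%).

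The side of the controls on which the slide 2 arrays lay changed with the scaling. After quantile normalization the members' median difference was -0.34, -0.32 and -0.23 in isoproterenol replicates 1, 2 and 3, where all genes had 0.02, -0.06 and -0.04. The 3 treated arrays then lay below all controls for 18 of 33 members (54.5%, against 19.9% of all genes), and isoproterenol replicate 1 did for 29 (87.9%, against 35.4%). With normexp background correction the medians were -0.16, 0.03 and 0.03, where those of all genes were 0.03, 0.55 and 0.49, and the treated arrays lay below all controls for 8 members (24.2%, against 9.88%) and above them for 2 (6.06%, against 32.6%). On isoproterenol replicate 1 the members were below the controls and below the median of all genes under each of these 3 scalings. On slide 2 they were above the median of all genes under 75th percentile scaling and below it under the other 2. The part of the slide in these differences cannot be told apart from the treatment for isoproterenol replicates 2 and 3, since slide 2 holds no control.

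**Figure D3:**
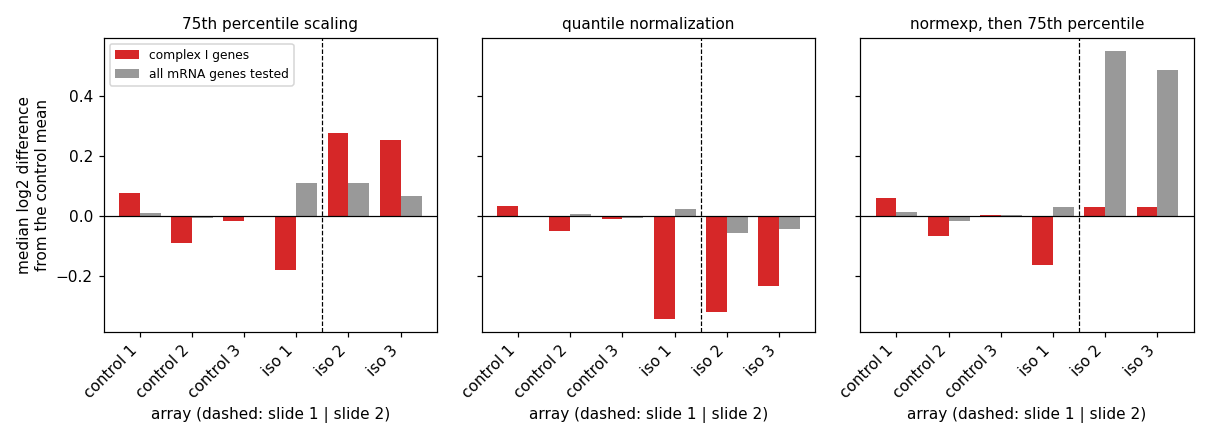
Median log2 difference from the control mean over the 33 complex I genes (red bars) and over all mRNA genes tested (grey bars) on each array under 3 scalings, with the dashed line between slide 1 and slide 2. The red bar of isoproterenol replicate 1 is below 0 in every panel (-0.18, -0.34 and -0.16), while those of replicates 2 and 3 change sides between panels.

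Counts in this and the following lists stand beside 9.99% of all genes that rose and 5.81% that fell, 15.8% in all. The rest of the respiratory chain showed few calls. Of 39 measured subunits of the other respiratory complexes and the ATP synthase, 0 rose and 1 fell, with a median of 0.12 over all arrays, -0.23 within slide 1 and -0.29 after quantile normalization. The one that fell was Cox8b, the muscle form of a small cytochrome c oxidase subunit. It stood at 5.54, 5.71 and 5.67 in controls and at 4.35, 4.74 and 4.61 in treated samples, a fall of 1.07 ± 0.18 (limma, adjusted p = 0.0130) that was -1.28 within slide 1, but leaving out control replicate 2, control replicate 3 or isoproterenol replicate 3 ended its call (adjusted p = 0.0744, 0.0773 and 0.0528). Of 14 assembly factors of complex I, which build the complex without staying in it, 1 rose and 0 fell, with a median of 0.37 (0.25 within slide 1). Ndufaf6 rose by 1.17 ± 0.29 (limma, adjusted p = 0.0383), but its change was 0.58 within slide 1 and the call was lost when any array other than isoproterenol replicate 1 was left out (adjusted p 0.0826 to 0.144). The mitochondrially encoded subunits are not analysed here.

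Other enzymes that feed electrons to ubiquinone gave 1 rise and 2 falls among 8. Dhodh, which oxidises dihydroorotate for pyrimidine synthesis, stood at 0.58, 0.92 and 0.67 in controls and at 2.29, 2.64 and 2.97 in treated samples, a rise of 1.91 ± 0.23 (limma, adjusted p = 0.00593). Etfdh, which passes on electrons from fatty acid oxidation, stood at 6.12, 6.15 and 6.27 and at 4.95, 5.09 and 4.94, a fall of 1.19 ± 0.16 (adjusted p = 0.00797). In both, every treated array of either slide was on the same side of all controls, and within slide 1 the changes were 1.56 and -1.23. Prodh, which oxidises proline, fell by 0.95 ± 0.22 (adjusted p = 0.0325), and had -0.75 within slide 1 (adjusted p = 0.166). The Etfdh call was lost without control replicate 2 or 3 (adjusted p = 0.0516 and 0.0608), and that of Prodh without control replicate 2 or 3 or isoproterenol replicate 2 or 3 (0.0977 to 0.137), while that of Dhodh was kept in all 6 such fits (at most 0.0472).

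Among 12 regulators of mitochondrial gene expression 1 rose and 2 fell. Ppargc1a, the coactivator PGC-1alpha that drives mitochondrial biogenesis, stood at 0.03, 0.24 and 0.31 in controls and at -1.97, -1.71 and -1.64 in treated samples, a fall of 1.97 ± 0.18 (limma, adjusted p = 0.00312) that was -2.16 within slide 1. Perm1, a muscle regulator of the same programme, fell by 1.44 ± 0.34 (adjusted p = 0.0336; -0.74 within slide 1), and Pprc1, a relative of Ppargc1a, rose by 1.61 ± 0.28 (adjusted p = 0.0149; 1.20 within slide 1). With the slide as a block the calls of Perm1 and Pprc1 were lost (adjusted p = 0.147 and 0.0857) and that of Ppargc1a was kept (0.0132). Leaving out control replicate 2 or 3 or isoproterenol replicate 2 or 3 also ended both calls (adjusted p 0.0832 to 0.135 for Perm1 and 0.0534 to 0.0782 for Pprc1), and that of Perm1 was lost without control replicate 1 too (0.0848), whereas Ppargc1a kept its call in all 6 such fits (at most 0.0322). In Ppargc1a the treated arrays of both slides were below all controls, which lay on slide 1 only. No complex I gene passed, but within slide 1 the median change of the complex I genes was -0.18, against 0.11 for all genes. Whether the complex I genes followed Ppargc1a was not tested.

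Hypoxia-inducible genes were listed because Ndufa4l2 is one of this kind, and 8 of 14 rose and 1 fell, with a median of 1.15 (0.60 within slide 1). Ankrd37, a small ankyrin repeat protein, rose by 1.58 ± 0.18, Egln3, a prolyl hydroxylase of the hypoxia-inducible factors, by 1.50 ± 0.23, and P4ha1, a collagen prolyl hydroxylase, by 1.46 ± 0.15 (limma, adjusted p = 0.00506, 0.0103 and 0.00467). Within slide 1 these changes were 1.77, 1.50 and 1.48. The single fall was Hif1a, by 0.75 ± 0.20 (adjusted p = 0.0467; -0.60 within slide 1), named after its value was seen. With the slide as a block 3 of the 9 calls were kept, those of Ankrd37, Egln3 and P4ha1 (adjusted p = 0.0154, 0.0492 and 0.0166). Ankrd37 and P4ha1 passed whichever array was left out (adjusted p at most 0.0465 and 0.0449), Egln3 was lost without control replicate 2 or 3 (0.0606 and 0.0641), and Hif1a without any array other than isoproterenol replicate 1 (0.0915 to 0.170). Ndufa4l2 was not well above background on slide 2, so its values there cannot show the size of a fall. Its change was -0.23 within slide 1, and -0.49 over all arrays with normexp background correction. A contrast between Ndufa4l2 and the 8 listed genes that rose was not tested.

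**Figure D4:**
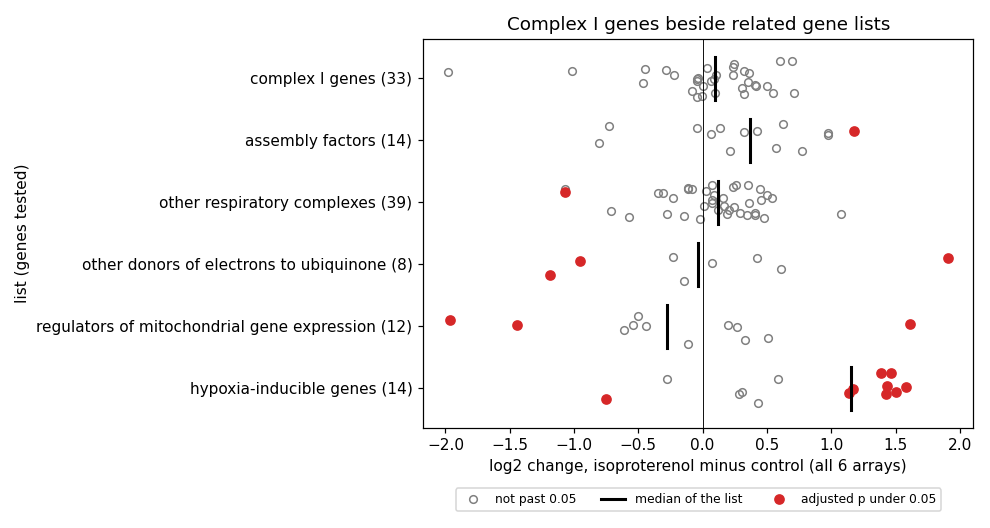
Log2 change (isoproterenol minus control, all 6 arrays) of the complex I genes and of 5 related gene lists, 1 point per gene, filled where the adjusted p was under 0.05, with a black bar at the median of each list. The complex I genes have no filled point and a median of 0.09, and the hypoxia-inducible genes have 9 filled points and a median of 1.15.

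The 9 members whose promoters hold the YY1 letters had a median change of 0.09, and the 22 members without them 0.16. Within slide 1 the median was -0.18 for either set.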

How the data were processed

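The deposited scanner files hold linear Cy3 intensity values that were background-subtracted by Agilent Feature Extraction 11.0.1.1, per the file headers. The authors also deposited a table of mRNA values on the log2 scale by a tool not given in the sources used here. Its transcripts were matched to probes by their values (20730 of 20734), and 13956 of 14757 RefSeq transcripts were named through RefSeq (GRCr8); Ensembl transcripts were left unnamed. Signals were log2-transformed and scaled to each array's 75th percentile over non-control probes. A probe was tested when well above background on at least 3 of 6 arrays, and the brightest probe stood for a gene. Groups were compared with limma 3.58.1 in R 4.3.3 (two-sided, Benjamini-Hochberg over 20027 genes, threshold 0.05). The fit was checked on simulated data with the spread of the controls on all 6 arrays and no slide effect. That check does not cover the wider spread of the treated arrays or the slides. No array had a saturated spot, and the number of arrays limits the precision. Normexp (offset 50) used the median spot signal. Values on every array are given for the 6 members with the largest change, the core subunits, Ndufa4 and Ndufa4l2, except 1 member that counts include but that is not reported here; from each related list, the genes past the threshold were named, at most 3 by size. Members and lists were chosen with earlier results of these data known.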

Additional observations from a re-analysis of the deposited data

How the results depend on the processing

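No member passed in the main comparison, so none could lose a call; 16 members took the other sign within slide 1 and 18 after quantile normalization, none of these 18 past the threshold. With the 75th percentile taken over probes detected on all arrays, 1 member fell (3.03%, against 9.74% of all genes). After quantile normalization 2 fell (6.06%, against 5.93%), and in the authors' deposited table of log2 values 3 fell (9.09%, against 6.51%). Among genes detected on all arrays 1 member rose, Ndufb9 (3.12%, against 25.0%). The members' median change of 0.09 became -0.15, -0.27 and -0.27 under the first 3 of these settings, and -0.04 with normexp. It was -0.18 within slide 1, and necessarily the same with the slide as a block, which estimates the same change. Combined settings chosen after seeing the data gave -0.16 (slide 1 with normexp) and -0.33 (slide 1 with quantile normalization). The median of all genes was 0.07, but -0.17 with the percentile over detected probes and 0.37 with normexp. Leaving out each array in turn gave 0 to 12 members that rose, 0 to 4 that fell and medians of -0.01 to 0.26; both highest counts came without isoproterenol replicate 1, when each group lay on its own slide and 51.8% of all genes passed. The other 5 such fits called no member, where 1.56% to 7.14% of all genes passed. The number of all genes past the threshold was 3165, 1448 with the slide as a block, 1024 within slide 1, 1103 within slide 1 after quantile normalization, and 313 to 10370 with an array left out (313 without control replicate 3, 10370 without isoproterenol replicate 1). Its split into higher and lower was 2001 and 1164, against 1355 and 1951 with the percentile over detected probes and 2089 and 744 with normexp. With the replicate number as a block 1386 genes passed, no member's call changed, and the deviations of same-numbered samples correlated at 0.01, 0.05 and -0.03, so the numbers were not taken as pairs. The cause of these shifts was not tested. The detection filter removed no gene, and signal over background on slide 2 limits Ndufa4l2.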
